A study of Mus musculus with 6 samples.

Results

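Axon guidance genes encode the secreted and membrane-bound cues, and their receptors, that steer growing nerve fibres and that also shape branching epithelia, mesenchyme and vessels. They were examined in whole mouse kidneys at embryonic day 12.5 by gene symbol: every probe set whose platform annotation gave a single symbol of the semaphorin classes 3 to 7, the plexins, the neuropilins, the Eph receptors, the ephrins, Slit, Robo, the netrins, Unc5 or Dcc. The rule took 151 of 45101 probe sets and 68 of 18193 named genes, with no measured value used. It took in Plxna4os1, an antisense RNA that is neither ligand nor receptor. After a filter on dim probe sets, at a signal of 14.7, 114 probe sets of 58 genes were tested, 33 ligands and 25 receptors.

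The comparison used 6 single-colour Affymetrix arrays, 3 of kidneys labelled normal and 3 of kidneys labelled beta-catenin conditional knockout. The normal mice carry no further genotype in the labels, and neither strain nor animals per vial is stated. In the knockout, loxP sites around exons 2 to 6 of the beta-catenin gene meet a Cre and Gfp transgene driven by the Hoxb7 promoter, which acts in the ureteric bud and its duct and not in the mesenchyme around it. Tissue was divided at random among 3 vials per group, so each p-value reflects only how far vials of a group differed, which can be technical in part. One label field of the knockout samples repeats the normal wording, and directions here follow the titles.

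Slit proteins are secreted ligands of Robo receptors. In the early kidney Slit2 and Robo2 are known to limit where Gdnf is made, which keeps the nephric duct from putting out extra ureteric buds. Semaphorins signal through plexins, with neuropilins as co-receptors for the secreted class 3. Netrins are laminin-like ligands of Dcc and the Unc5 receptors, and ephrins are cell-surface ligands that signal in both directions when they meet Eph receptors on a neighbouring cell.

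The targeted gene, Ctnnb1, was not lower on the knockout arrays: its brightest probe set stood at 0.09 ± 0.08 (SE) on the log2 scale, knockout minus normal, and where its probes lie relative to the deleted exons is not analysed here. Array medians ran from 24.9 to 32.1. Of all 12464 genes tested, 0.602% passed an adjusted p of 0.05 (limma, Benjamini-Hochberg over all probe sets kept). All 9 annotated ureteric bud, all 6 nephron progenitor and all 4 annotated stromal markers were above the filter. All 8 skeletal muscle markers were above it too, so passing it does not define a tissue. Of the 9 ureteric bud markers 8 read lower in the knockout, beside 50.6% of all genes, and none passed the adjusted threshold. In whole organs, fewer cells of a type and less RNA per cell cannot be told apart.

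No guidance gene passed the adjusted threshold. Among the 58 genes the limma p was under 0.05, unadjusted, for 7 genes, or 12.1%, beside 11.7% of all genes tested. Of these 7, 6 were lower in the knockout (10.3%, beside 5.57% of all genes) and 1 was higher (1.72%, beside 6.14%). The 6 include Unc5c, whose other kept probe set read higher, at a log2 difference of 0.27. The other kept probe sets of Plxnb1 and Plxna1, also among the 6, stood at -0.22 and -0.01. The knockout arrays lay entirely below the normal arrays for 9 genes (15.5%, beside 9.1% of all genes) and entirely above them for 5 (8.62%, beside 10.2%). Together these were 24.1% of the members against 19.3% of all genes. The shares in either direction, 12.1% and 24.1%, are near those of the whole array, while the shares by direction differ more from them. The count of 7 became 14 without normal replicate 3, 4 without knockout replicate 2 and 3 without knockout replicate 3. It became 4 without both arrays numbered 1, a fit chosen after seeing the data, and only 1 of those 4 was among the 7. Over all genes the share in these fits was 14.2%, 7.42%, 8.77% and 8.95%, in that order. The smallest adjusted p of any member was 0.271 (limma), for Plxnb1.

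**Figure D1:**
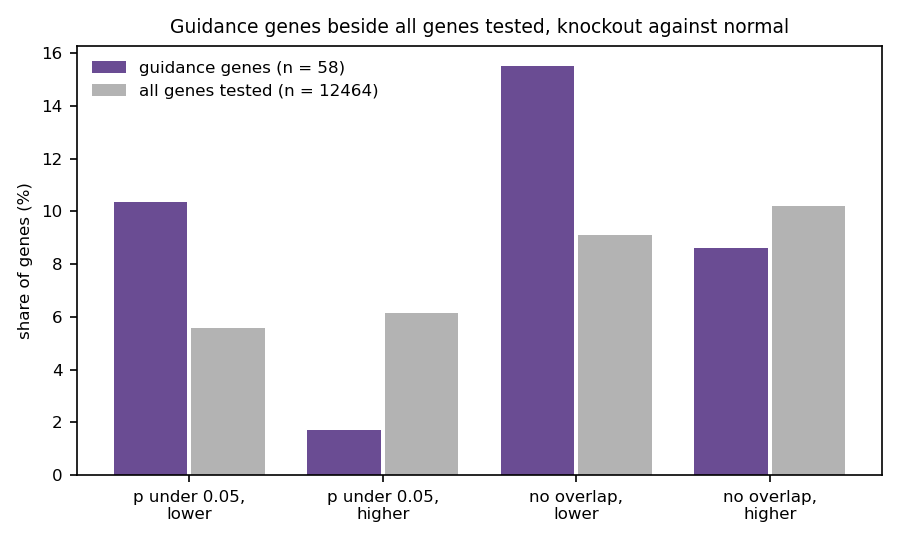
Share of genes, in percent, that met each of 4 descriptions in knockout against normal kidneys, for the 58 guidance genes and for all 12464 genes tested. Small p-values in the lower direction covered 10.3% of guidance genes and 5.57% of all genes, and in the higher direction 1.72% and 6.14%.

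The median log2 difference over the 58 genes was -0.09, beside -0.003 over all genes, with 36 genes below 0 (62.1%, beside 50.6% of all genes) and 22 above. The median was -0.01 without normal replicate 1 and -0.04 without knockout replicate 3. Normal replicate 1 gave the highest signal of all 6 for 28 of the 58 genes, or 48.3%, against 27.3% of all genes. Of the 58 differences, 51 lay within 0.5 of 0 on the log2 scale, and 2, Ntn3 and Plxna4, lay beyond 1. For 44 genes the 95% interval of the difference stayed within 1 log2 unit of 0 on both sides, and for 19 genes within 0.5. The same counts over all genes were not made, so these sizes are not set against the whole array.

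**Figure D2:**
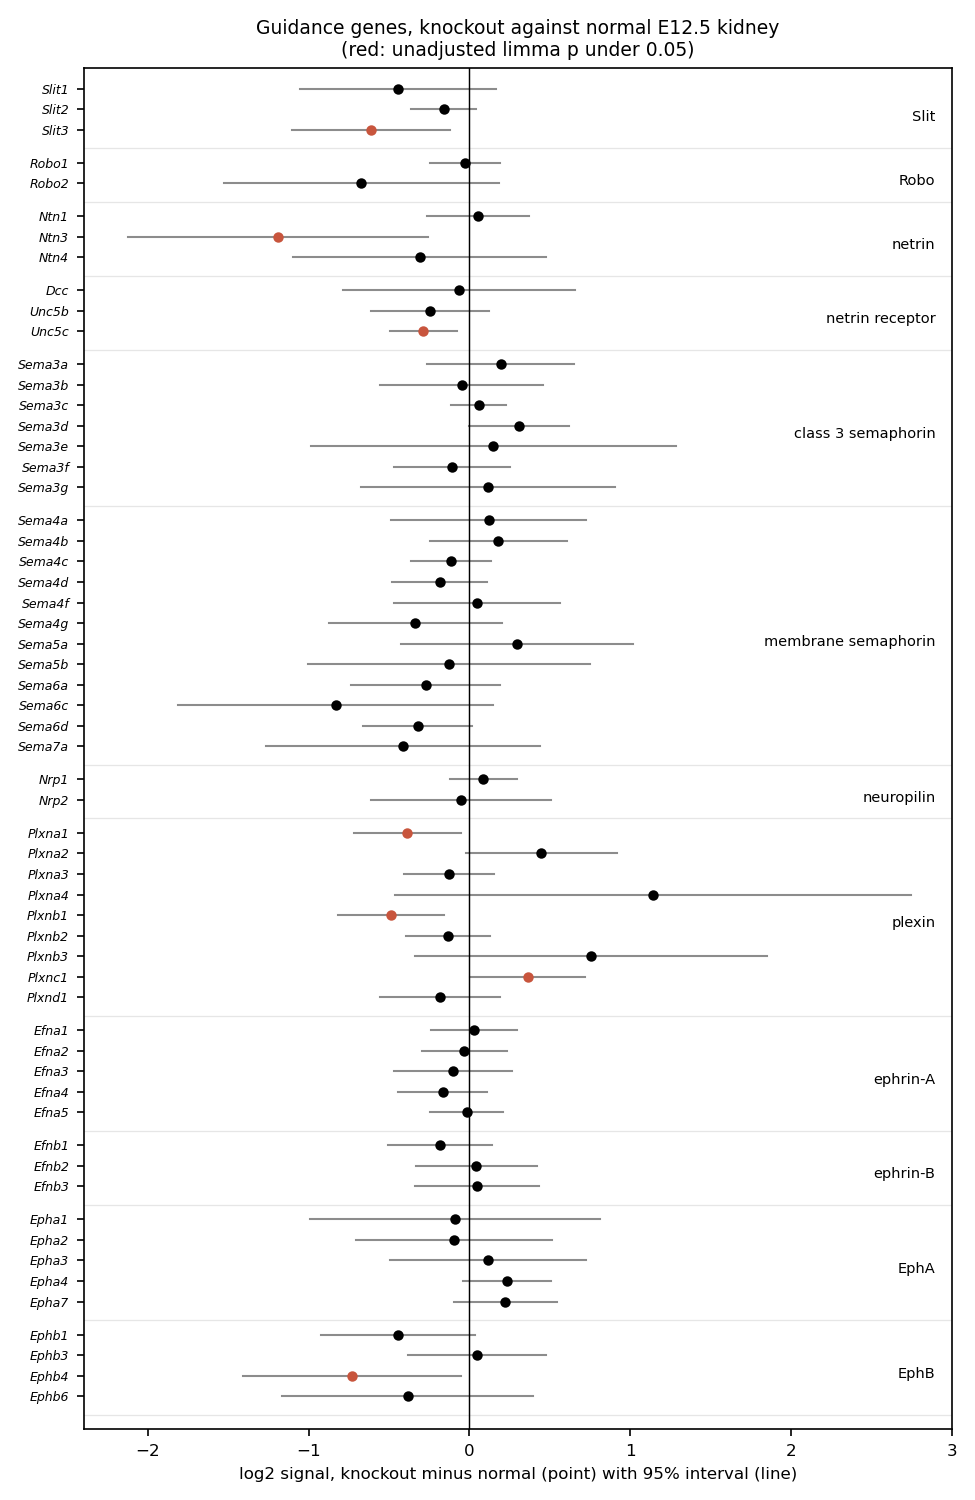
Log2 difference in signal, knockout minus normal, for the brightest kept probe set of each of the 58 guidance genes, grouped by family, with points for estimates, lines for 95% intervals and red for an unadjusted limma p under 0.05. Slit and EphB genes mostly lie left of 0, ephrin genes lie close to it, and the widest intervals belong to dim genes such as Plxna4.

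All 3 Slit ligands read lower in the knockout, and so did all 6 of their probe sets, at differences from -1.49 to -0.16. Unadjusted p was under 0.05 in 3 of these 6 probe sets, beside 11.5% of all probe sets in either direction, and none passed. These probe sets are repeat readings of 3 genes. By the brightest probe set it was under 0.05 for 1 of the 3 genes, Slit3, beside 5.57% of all genes in the lower direction. Slit2, the ligand that restricts budding, read 853, 978 and 913 on normal arrays 1 to 3, against 836, 859 and 760.0 on knockout arrays 1 to 3. Normal replicate 1 lay between knockout replicates 1 and 2 in that probe set, so the groups overlapped. The log2 difference was -0.16 ± 0.09 (SE), with a 95% interval from -0.36 to 0.04 (limma adjusted p = 0.528). Its dimmer probe sets stood further down, at -0.44 ± 0.20 (SE) and -0.54 ± 0.24 (SE), with adjusted p of 0.442 and 0.436 in the same limma fit. The dimmest of them read 101, 68.9 and 68.1 on the normal arrays and 66.8, 53.0 and 43.5 on the knockout arrays, and there every knockout array lay below every normal one.

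Slit3, a ligand of the same receptors, read 137, 84.6 and 118 on normal arrays 1 to 3, against 60.5, 83.4 and 75.8 on knockout arrays 1 to 3. The groups did not overlap, but the highest knockout and the lowest normal reading differed by little. Its difference was -0.61 ± 0.22 (SE), a ratio of 0.654 (limma adjusted p = 0.357). Leaving out 1 array kept the unadjusted p under 0.05 in 3 of 6 fits. The difference stood at -0.46 without normal replicate 1 and at -0.33 without both arrays numbered 1. Slit1 read 36.5, 64.3 and 48.1 on the normal arrays and 36.3, 40.4 and 30.5 on the knockout arrays, at -0.45 ± 0.27 (SE; limma adjusted p = 0.556). This was -0.24 without normal replicate 2 and -0.65 without normal replicate 1. Its other probe set gave 53.8, 41.9 and 27.1 on the normal arrays and 31.8, 7.8 and 11.2 on the knockout arrays, at -1.49 ± 0.52 (SE; limma adjusted p = 0.355), but 2 of these knockout readings fell short of 14.7, which leaves its size poorly measured.

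**Figure D3:**
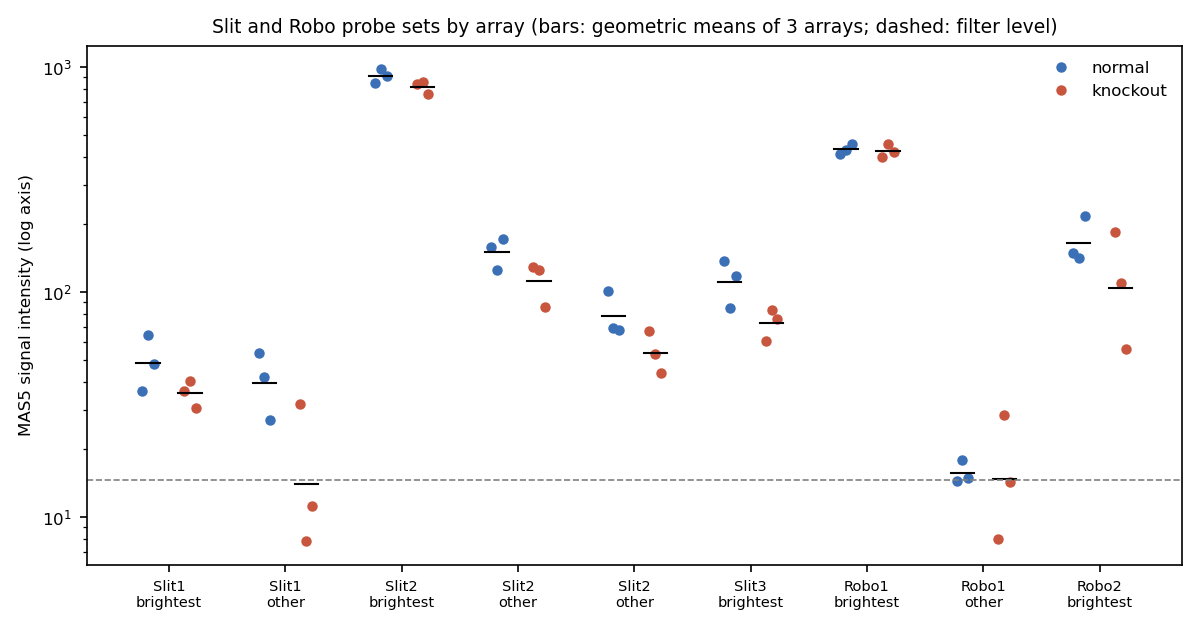
MAS5 signal of the 9 kept Slit and Robo probe sets on each array, on a log axis, with bars at the geometric mean of 3 arrays and a dashed line at the filter level of 14.7. Knockout means lie below normal means in all 9, the groups separate for 1 Slit2 probe set and for Slit3, and heights of different probe sets are not comparable.

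Of the Slit ligands, which shared a direction, Slit1 had no promoter entry, so the promoters of Slit2 and Slit3 are shown. They come from the RefSeq gene table of build GRCm38.p6 and run from 250 bases before to 50 after the start of the gene, 5′ to 3′ on the gene's strand, with CG dinucleotides in capitals.
Slit2 promoter, chr5:47982905-47983204, plus strand: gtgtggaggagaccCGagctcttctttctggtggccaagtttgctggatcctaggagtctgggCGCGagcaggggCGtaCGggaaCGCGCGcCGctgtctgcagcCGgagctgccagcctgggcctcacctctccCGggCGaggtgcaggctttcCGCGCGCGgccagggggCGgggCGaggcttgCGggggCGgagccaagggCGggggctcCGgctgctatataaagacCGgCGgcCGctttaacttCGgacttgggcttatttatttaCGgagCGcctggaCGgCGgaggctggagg
Slit3 promoter, chr11:35121206-35121505, plus strand: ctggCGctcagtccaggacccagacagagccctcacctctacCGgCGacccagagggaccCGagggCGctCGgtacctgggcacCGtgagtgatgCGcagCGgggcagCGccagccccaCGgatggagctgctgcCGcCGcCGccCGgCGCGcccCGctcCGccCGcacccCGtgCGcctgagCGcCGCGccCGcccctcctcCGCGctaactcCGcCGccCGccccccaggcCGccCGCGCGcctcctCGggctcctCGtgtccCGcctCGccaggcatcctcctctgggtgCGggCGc
Both windows are rich in CG dinucleotides, with 30 in Slit2 and 41 in Slit3. A promoter entry was found for 57 of the 68 genes, 73 entries in all. They held a median of 19 CG dinucleotides and 64.3% G or C, beside 13 and 56.3% over 21263 promoters of protein-coding genes.

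Beta-catenin acts on genes through Tcf and Lef factors, so the core of their motif, CTTTGA, was searched on both strands. It was present in 4 of the 73 guidance promoters, 5.48%, and in 14.4% of protein-coding promoters, in a set that differs from it in base composition. The 4 belong to Nrp2, Sema6d, Epha2 and Sema3e, and neither the Slit2 nor the Slit3 window holds it. The longer form CTTTGAT, which contains the first, was in 1.37% of guidance and 3.22% of protein-coding promoters, here only in Nrp2, shown with the match in capitals.
Nrp2 promoter, chr1:62703067-62703366, plus strand: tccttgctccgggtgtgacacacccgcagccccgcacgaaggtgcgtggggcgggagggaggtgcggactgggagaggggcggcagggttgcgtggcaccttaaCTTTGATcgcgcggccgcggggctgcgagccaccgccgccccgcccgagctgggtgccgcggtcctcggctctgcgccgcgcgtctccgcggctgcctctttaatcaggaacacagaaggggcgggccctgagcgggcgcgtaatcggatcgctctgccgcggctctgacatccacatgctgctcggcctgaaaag
A match describes these letters in this window and is not a bound site.

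The Robo receptors did not separate between groups. Robo2, the receptor that holds back budding, read 148, 142 and 217 on normal arrays 1 to 3, against 185, 109 and 55.7 on knockout arrays 1 to 3. Knockout replicate 1 lay within the normal range and knockout replicate 3 was the lowest of all 6. The difference was -0.67 ± 0.38 (SE) with a 95% interval from -1.53 to 0.19 (limma adjusted p = 0.530). It stood at -0.22 without knockout replicate 3, at -1.09 without knockout replicate 1 and at -1.17 without both arrays numbered 1. Robo1, its close relative, read 411, 428 and 457 on the normal arrays and 398, 455 and 419 on the knockout arrays and overlapped, at -0.03 ± 0.10 (SE; 95% interval from -0.24 to 0.19). Robo3 was below the filter in both of its probe sets, with a highest reading of 20.8.

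Gdnf, the mesenchymal growth factor that draws out the bud, read 365, 529 and 429 on the normal arrays and 365, 205 and 378 on the knockout arrays, at -0.52 ± 0.23 (SE; limma adjusted p = 0.444). Gdnf was lowest on knockout replicate 2 and Robo2 on knockout replicate 3. Of the 12 tested genes on a list for ureteric budding control, 8 were lower and 4 higher, with 2 at an unadjusted p under 0.05, both lower, beside 11.7% of all genes in either direction and 5.57% lower. These were Etv4 at -0.66 ± 0.24 (SE) and Etv5 at -0.29 ± 0.12 (SE), transcription factors of the Ret response. The list median was -0.09, beside -0.003 over all genes, and 0 of its genes passed the adjusted threshold in limma.

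In the netrin system 5 of 6 genes were lower, beside 50.6% of all genes. An unadjusted p under 0.05 was found for 2 of the 6, both lower, beside 11.7% of all genes in either direction and 5.57% lower. Netrin-1 (Ntn1), the best known ligand of Dcc, read 428, 509 and 480.4 on the normal arrays and 456, 602 and 426 on the knockout arrays, and its groups overlapped at 0.05 ± 0.14 (SE; 95% interval from -0.26 to 0.37). Netrin-3 (Ntn3) read 45.9, 24.8 and 22.8 on normal arrays 1 to 3, against 14.4, 8.8 and 17.2 on knockout arrays 1 to 3. The groups did not overlap, the difference was -1.19 ± 0.41 (SE; limma adjusted p = 0.347), and knockout replicates 1 and 2 were below the filter level, so its size is poorly measured. Netrin-4 (Ntn4), found in basement membranes, read 25.4, 20.4 and 17.1 on the normal arrays and 14.9, 21.8 and 14.3 on the knockout arrays, at -0.31 ± 0.35 (SE), and ranged from -0.50 to -0.16 on leaving out 1 array.

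The probe sets of Unc5c, a netrin receptor that mediates repulsion, pointed in opposite directions. The brighter read 642, 741 and 681 on normal arrays 1 to 3, against 598, 557 and 536 on knockout arrays 1 to 3, with every knockout array below every normal one. Its difference was -0.29 ± 0.09 (SE; limma adjusted p = 0.311). The other read 353, 355 and 385 on normal arrays 1 to 3, against 448, 423 and 444 on knockout arrays 1 to 3, with every knockout array above every normal one. Its difference was 0.27 ± 0.09 (SE; limma adjusted p = 0.338). Within each array, the log2 ratio of the brighter to the dimmer probe set was 0.86, 1.06 and 0.82 on normal arrays 1 to 3, against 0.42, 0.40 and 0.27 on knockout arrays 1 to 3. Its mean was 0.92 ± 0.13 in normal and 0.36 ± 0.08 in knockout kidneys (SD, n = 3 per group). The ratio was formed because the probe sets had been seen to separate in opposite directions, so it is a description with no test, and the mean of both stood at -0.01. Which transcripts each one reads is not analysed here.

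The other netrin receptors overlapped between groups. Unc5b, which also guides vessels, read 185, 126 and 146 on the normal arrays and 124, 134 and 122 on the knockout arrays, at -0.25 ± 0.16 (SE; limma adjusted p = 0.587). This was -0.098 without normal replicate 1 and -0.38 without normal replicate 2. Dcc, the attractive netrin receptor, read 46.9, 25.7 and 42.4 on normal arrays 1 to 3, against 47.1, 27.7 and 34.1 on knockout arrays 1 to 3, at -0.07 ± 0.32 (SE), with its other probe sets at -0.66 and -0.01. In its brightest probe set normal replicate 1 and knockout replicate 1 were the highest arrays. In the probe set at -0.66, knockout replicate 1 read 31.7, below knockout replicate 2 at 35.5. Normal replicate 1 and knockout replicate 1 were also highest for the sympathetic and chromaffin markers, 7 of whose 8 listed genes were tested, none of them at 0. Their summed signal was 1563, 124 and 338 on normal arrays 1 to 3, against 1107, 501 and 162 on knockout arrays 1 to 3. Neuron markers, 7 of 9 tested and 2 dim, were by their mean log2 signal relative to normal also highest on normal replicate 1 (0.59) and knockout replicate 1 (0.74). Elavl3, Stmn3 and Snap25 had both as their highest arrays, while Gap43, Dcx, Stmn2 and Elavl4 did not. The part of these cell types in the Dcc signal was not tested.

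**Figure D4:**
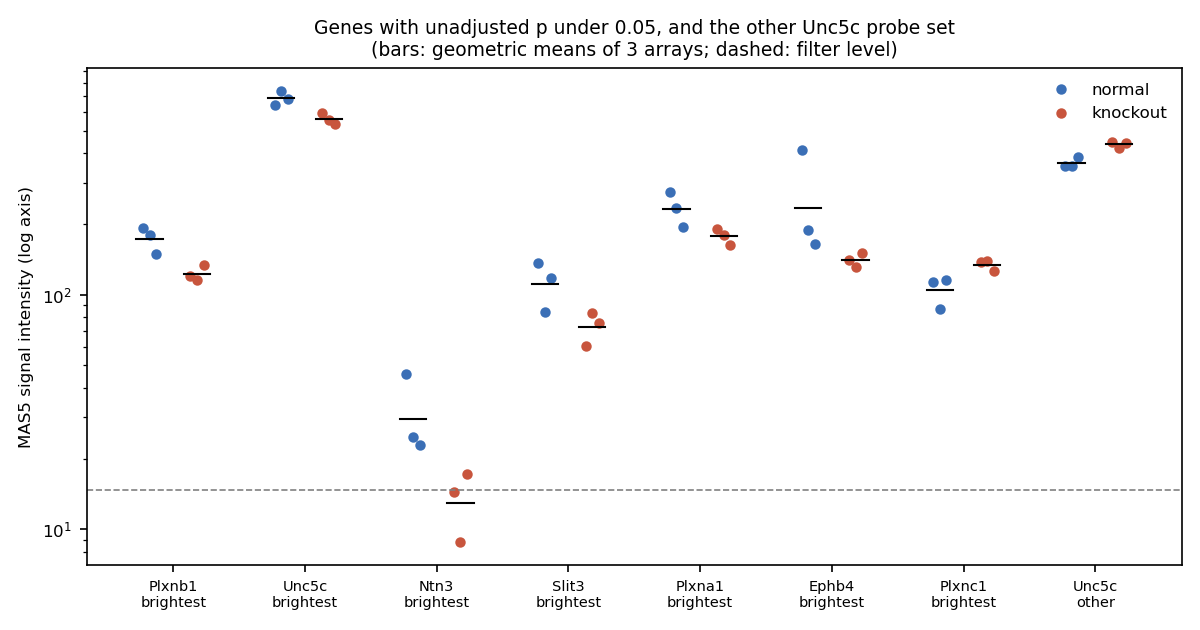
MAS5 signal on each array, on a log axis, for the 7 guidance genes with an unadjusted limma p under 0.05 in order of p, and for the other Unc5c probe set, with bars at the geometric mean of 3 arrays and a dashed line at the filter level of 14.7. The groups separate in all 8, downwards except for Plxnc1 and the other Unc5c probe set, and normal replicate 1 stands well above the rest for Ephb4.

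The plexins, receptors of semaphorins, held 3 of the 7 small p-values, from 9 genes tested, beside a share of 11.7% over all genes. Plxnb1, a receptor for Sema4d that is known in ureteric epithelium, read 193, 179.7 and 149 on normal arrays 1 to 3, against 121, 116 and 134 on knockout arrays 1 to 3. All knockout arrays lay below all normal ones. The difference was -0.49 ± 0.14 (SE), with a 95% interval from -0.82 to -0.16 and a ratio of 0.713 (limma adjusted p = 0.271). Its unadjusted p stayed under 0.05 in each of the 6 fits that left out 1 array. The other Plxnb1 probe set read 202, 151 and 122 on the normal arrays and 133, 135 and 131 on the knockout arrays, overlapped, and stood at -0.22 ± 0.18 (SE).

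Plxna1, a class A plexin that pairs with neuropilins, read 275, 233 and 195 on the normal arrays and 190.0, 179.8 and 164 on the knockout arrays. The groups did not overlap, at -0.39 ± 0.15 (SE; limma adjusted p = 0.386), but its other probe set stood at -0.01 ± 0.32 (SE) and the mean of both at -0.20. Plxna3 did not overlap either, at the small difference of -0.13 ± 0.12 (SE; limma adjusted p = 0.716), with its other probe set at -0.41.

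Other plexins read higher. Plxnc1, the receptor of Sema7a, read 113, 86.7 and 116 on the normal arrays and 138, 139 and 126 on the knockout arrays, without overlap, at 0.36 ± 0.16 (SE; limma adjusted p = 0.434), with its other probe sets at -0.08 and 0.48. The difference was 0.23 without normal replicate 2. Plxna2 read 193, 115 and 203 on the normal arrays and 209.6, 239.8 and 228 on the knockout arrays, without overlap, at 0.45 ± 0.21 (SE; limma adjusted p = 0.450), while its 3 other kept probe sets stood between -0.04 and 0.25. Normal replicate 2 was the lowest array for both genes. Macrophage markers, 6 of 6 tested and none at 0, had a summed signal of 798, 352 and 614 on normal arrays 1 to 3, against 749, 1070.4 and 786 on knockout arrays 1 to 3, lowest on the same array. Their part in the Plxnc1 signal was not tested. Plxnb2, another class B plexin, read 782, 699.8 and 582 on the normal arrays and 591, 634 and 639.7 on the knockout arrays, at -0.14 ± 0.12 (SE). Plxnd1, the endothelial receptor of Sema3e, read 545, 337 and 373 on the normal arrays and 350.2, 373 and 357 on the knockout arrays, at -0.18 ± 0.17 (SE). The groups overlapped for both, with normal replicate 1 the highest array. Plxna4 and Plxnb3 had the highest estimates, 1.14 ± 0.71 (SE) and 0.76 ± 0.48 (SE), from readings partly under the filter level, and neither passed.

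Neuropilin-1 (Nrp1), a co-receptor for class 3 semaphorins and for vascular growth factor, read 1133, 977 and 1141 on the normal arrays and 1078, 1209.5 and 1161 on the knockout arrays, at 0.09 ± 0.09 (SE) with a 95% interval from -0.12 to 0.29. Its 3 other probe sets stood between -0.15 and 0.04. Neuropilin-2 (Nrp2) read 164, 124 and 159 on normal arrays 1 to 3, against 135, 210.0 and 103 on knockout arrays 1 to 3, at -0.05 ± 0.25 (SE; 95% interval from -0.61 to 0.51). Knockout replicate 2 was its highest array in all 3 kept probe sets. That array also held the highest skeletal muscle markers, all 8 of them tested, with a summed signal of 441, 373 and 486 on normal arrays 1 to 3, against 1067, 6231 and 470.3 on knockout arrays 1 to 3. The part of muscle in the Nrp2 signal was not tested.

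The class 3 semaphorins, secreted cues for neurons and endothelium, were higher in 5 of 7 genes and lower in 2, with a median of 0.11 and none at an unadjusted p under 0.05. Sema3d read 353, 366 and 405 on normal arrays 1 to 3, against 406, 568 and 430.1 on knockout arrays 1 to 3. Its groups barely separated, at 0.31 ± 0.14 (SE; limma adjusted p = 0.438), and it stood at 0.16 without knockout replicate 2. Sema3c, known to promote branching and glomerular development, read 705, 748 and 727 on the normal arrays and 757, 749.9 and 758 on the knockout arrays. These groups also separated, yet the difference was only 0.06 ± 0.08 (SE), and its other probe set lay at -0.14 ± 0.18 (SE). Sema3a, an inhibitor of ureteric branching, read 154, 145 and 127 on the normal arrays and 159, 216 and 124 on the knockout arrays, at 0.19 ± 0.20 (SE; 95% interval from -0.26 to 0.65), with knockout replicate 2 the highest array. Sema3f, a ligand that prefers neuropilin-2, read 250.2, 247 and 323 on the normal arrays and 305, 219 and 238 on the knockout arrays, at -0.11 ± 0.16 (SE), with its other probe sets at -0.29 and -0.41.

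The membrane semaphorins of classes 4 to 7 were lower in 8 of 12 tested genes, with a median of -0.16. None had an unadjusted p under 0.05. Sema6d, a transmembrane ligand of class A plexins, read 527, 364 and 366 on normal arrays 1 to 3, against 312, 327 and 353 on knockout arrays 1 to 3. The groups did not overlap, at -0.32 ± 0.15 (SE; limma adjusted p = 0.454), and normal replicate 1 was the highest array. Without it the difference was -0.15. Sema6c had the lowest estimate of the class, -0.83 ± 0.43 (SE), from 109, 55.7 and 76.6 on the normal arrays and 57.1, 67.9 and 21.1 on the knockout arrays, and stood at -0.31 without knockout replicate 3, while its other kept probe set was at 0.54. Sema4d, the ligand of Plxnb1, read 175, 162 and 142 on the normal arrays and 143, 135 and 142 on the knockout arrays, at -0.19 ± 0.13 (SE; limma adjusted p = 0.608). Knockout replicate 1 just exceeded the lowest normal array there, so the groups overlapped. The remaining 9 tested members of these classes had estimates from -0.41 to 0.29, and all overlapped between groups.

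Ephrins differed little. All 5 ephrin-A ligands, which are anchored by a lipid, lay between -0.17 and 0.03, and all 3 ephrin-B ligands, which cross the membrane, between -0.18 and 0.05. Every one overlapped between groups. Efna1 read 170.0, 153 and 163 on the normal arrays and 157, 168 and 170.3 on the knockout arrays, at 0.03 ± 0.12 (SE; 95% interval from -0.24 to 0.29). Efna4 read 297, 299 and 310.1 on the normal arrays and 228, 286 and 298 on the knockout arrays, at -0.17 ± 0.12 (SE), with knockout replicate 1 the lowest array. Efna3 read 182, 128 and 136 on the normal arrays and 128, 135 and 148 on the knockout arrays, at -0.10 ± 0.16 (SE), and Efna2 362, 405 and 313 on the normal arrays and 352, 368 and 332 on the knockout arrays, at -0.03 ± 0.12 (SE). Among the ephrin-B ligands, Efnb3 read 222, 157 and 165 on the normal arrays and 159, 211 and 189 on the knockout arrays, at 0.05 ± 0.17 (SE). Efnb2, a ligand of arteries and of early nephron epithelium, read 559.9, 600.4 and 504 on the normal arrays and 626, 429.8 and 689 on the knockout arrays, at 0.04 ± 0.17 (SE; 95% interval from -0.33 to 0.42), with both its lowest and its highest reading in the knockout group. Efnb1 read 437, 348 and 313 on the normal arrays and 309, 293 and 359 on the knockout arrays, at -0.18 ± 0.14 (SE), but its 2 other probe sets stood at 0.02 and 0.46, and the mean of the 3 at 0.10, with the sign turned.

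Among EphA receptors 3 of 5 tested genes were higher and 2 lower, with none at an unadjusted p under 0.05. Epha4, a receptor for ephrins of both classes, read 251, 213 and 256 on normal arrays 1 to 3, against 267, 311 and 267 on knockout arrays 1 to 3. The groups did not overlap, at 0.23 ± 0.12 (SE; limma adjusted p = 0.499), and stood at 0.15 without normal replicate 2. In its other kept probe sets the groups overlapped, at 0.09, 0.07 and 0.31. Epha7 read 514, 406 and 597 on the normal arrays and 580.3, 630.2 and 542 on the knockout arrays, at 0.22 ± 0.14 (SE; limma adjusted p = 0.571), and knockout replicates 1 and 3 fell within the normal range. The Epha7 difference was 0.073 without normal replicate 2 and 0.35 without normal replicate 3. Its other kept probe sets stood at 0.21, -0.03 and 0.71. Epha3 read 187, 101 and 203 on the normal arrays and 148, 217 and 151 on the knockout arrays, at 0.11 ± 0.27 (SE), with normal replicate 2 the lowest array in all 4 of its probe sets. The others of these stood at 0.09, -0.05 and -0.002. Epha2, an epithelial receptor, read 38.2, 50.7 and 76.3 on the normal arrays and 52.0, 50.2 and 46.5 on the knockout arrays, at -0.09 ± 0.27 (SE).

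Among EphB receptors 3 of 4 genes were lower. Ephb4, a receptor of veins that binds ephrin-B2, read 413, 189 and 164 on normal arrays 1 to 3, against 141, 131 and 150.4 on knockout arrays 1 to 3. No knockout array reached the lowest normal one, and the difference was -0.73 ± 0.30 (SE; limma adjusted p = 0.411). Normal replicate 1 was more than 2 times as bright as any other array, and without it the difference was -0.32. All 8 endothelial markers were tested, none was at 0, 4 were lower and 4 higher, and their summed signal was 2249, 1507 and 1737 on normal arrays 1 to 3, against 1705, 1839 and 1726 on knockout arrays 1 to 3. Normal replicate 1 was the highest array for both. Kdr, the 1 endothelial marker with an unadjusted p under 0.05, read 308, 258 and 233 on the normal arrays and 204, 201 and 198 on the knockout arrays, at -0.40 ± 0.13 (SE). The part of endothelium in the Ephb4 signal was not tested.

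Ephb1 read 63.9, 49.7 and 60.1 on the normal arrays and 42.4, 47.6 and 37.5 on the knockout arrays, without overlap, at -0.44 ± 0.21 (SE; limma adjusted p = 0.460). Ephb6, which lacks kinase activity, read 66.2, 50.0 and 27.0 on the normal arrays and 28.5, 40.3 and 34.9 on the knockout arrays and overlapped, at -0.39 ± 0.34 (SE). Its difference was -0.10 without normal replicate 1 and -0.75 without normal replicate 3. Ephb3 read 120.4, 119 and 83.4 on the normal arrays and 98.2, 126 and 107 on the knockout arrays, at 0.05 ± 0.19 (SE), and its groups overlapped. Ephb2 is not analysed here.

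Ligands and receptors known to bind each other can be set side by side without a test. For Slit2 and Robo2 the differences were -0.16 and -0.67, for Sema4d and Plxnb1 -0.19 and -0.49, for Efnb2 and Ephb4 0.04 and -0.73, for Sema7a and Plxnc1 -0.41 and 0.36, and for Sema3e and Plxnd1 0.15 and -0.18. These 5 are only some of the known pairs, so shared signs are not counted. The standard error was 0.38 for Sema7a and 0.50 for Sema3e, so the sign of either is not settled.

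Family means also varied between arrays of a group. The mean over membrane semaphorins, relative to the normal mean, was 0.29 on normal replicate 1 and -0.36 on knockout replicate 3. That over plexins was 0.28 on both normal replicate 1 and knockout replicate 2. Of the 12 family means, those of Slit and of the netrins lay lower on all 3 knockout arrays than on every normal one, and the netrin mean rests on Ntn3, since Ntn1 and Ntn4 overlapped between groups. Sympathetic and chromaffin markers ranged from -1.54 on normal replicate 2 to 1.69 on normal replicate 1, and skeletal muscle markers reached 4.04 on knockout replicate 2. All 5 early nephron markers were lower in the knockout, beside 50.6% of all genes, and none was at 0. None passed the adjusted threshold in limma, and the list mean was -0.32, -0.71 and -0.42 on knockout replicates 1 to 3. The Slit mean on those arrays was -0.47, -0.25 and -0.49. The summed early nephron signal was 1736, 1569.6 and 1513 on normal arrays 1 to 3, against 1192, 891 and 1086 on knockout arrays 1 to 3. The part of these cells in the Slit values was not tested. The other lists were ureteric bud (8 of 9 tested markers lower), nephron progenitor (3 of 6 lower), renal stroma (2 of 4 lower), neuron (2 of 7 lower), Schwann and crest (2 of 3 lower) and erythroid (0 of 4 lower), none with a gene past the adjusted threshold in limma.

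**Figure D5:**
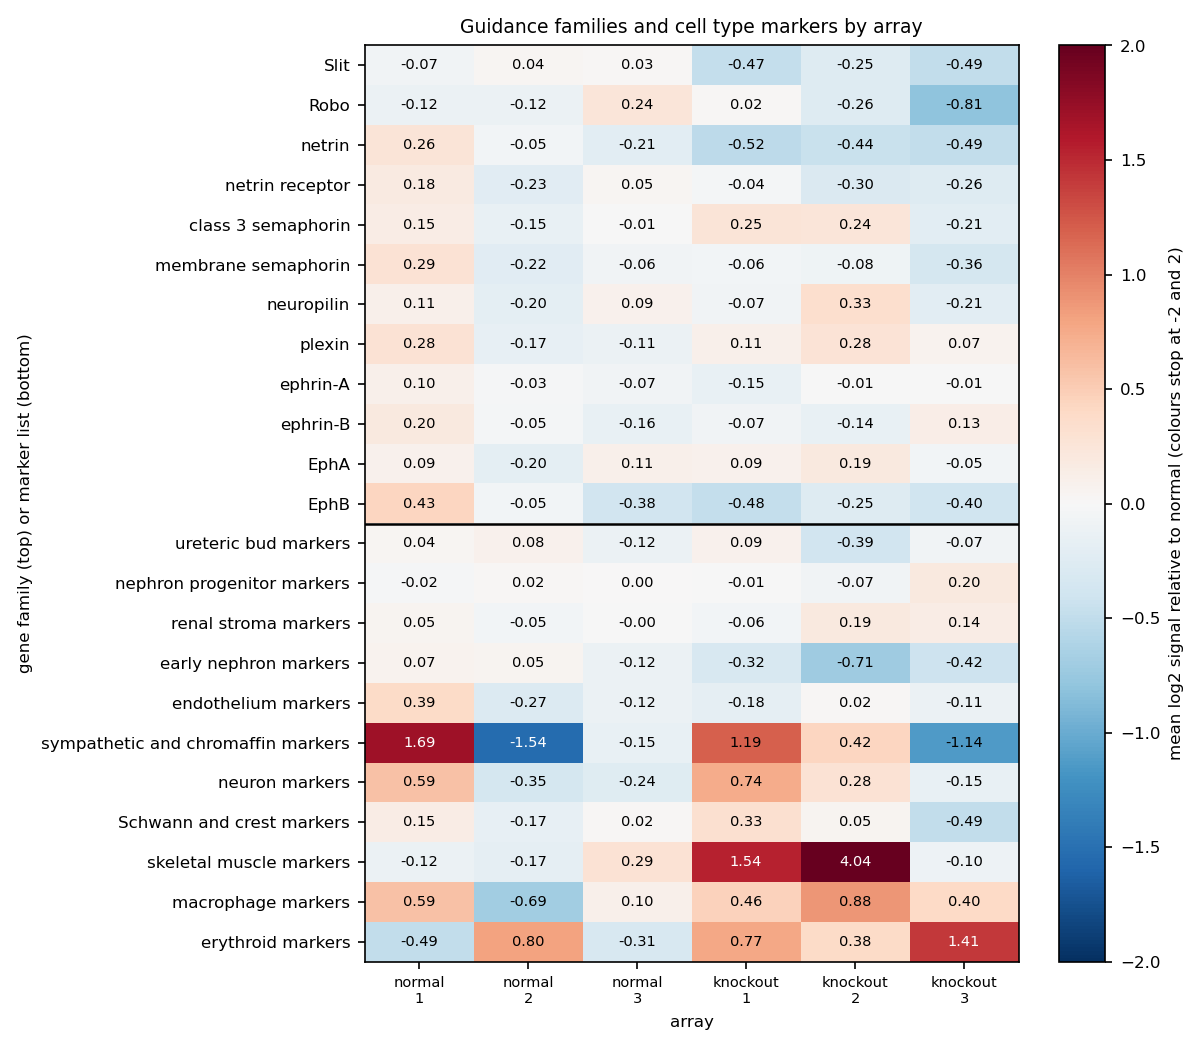
Mean log2 signal of each guidance family (above the line) and each cell type marker list (below it) on the 6 arrays, with the normal mean set to 0 and colours that stop at -2 and 2. Slit, netrin, netrin receptor, membrane semaphorin, ephrin-A and EphB means are negative on all 3 knockout arrays. The sympathetic, skeletal muscle, erythroid, macrophage and neuron marker lists span a wider range over the arrays than any guidance family.

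Other guidance genes, on a list of partners outside these families, gave no call. Of 17 tested, 8 were lower and 9 higher, 3 had an unadjusted p under 0.05, beside 11.7% of all genes, and 0 passed the limma threshold. Rgmb, a co-receptor that binds the netrin receptor neogenin, read 79.7, 43.9 and 55.0 on the normal arrays and 109, 102 and 105 on the knockout arrays, without overlap, at 0.87 ± 0.23 (SE; limma adjusted p = 0.202). Dag1, the dystroglycan that binds Slits and laminins, read 908, 826 and 679.8 on the normal arrays and 612, 592 and 613 on the knockout arrays, at -0.40 ± 0.11 (SE; limma adjusted p = 0.236). Robo4, the endothelial relative of Robo1, read 140.0, 86.7 and 80.6 on the normal arrays and 57.9, 64.4 and 72.7 on the knockout arrays, at -0.62 ± 0.23 (SE). Of 36 intracellular signalling genes tested, 21 were lower and 15 higher, 2 had an unadjusted p under 0.05, a smaller share than the 11.7% found over all genes, and 0 passed. These were Abl1, a kinase downstream of Robo, at 0.26 ± 0.10 (SE), and the semaphorin effector Mical3 at -0.45 ± 0.19 (SE).

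Of the 68 genes, 10 were dim in every probe set and were not tested: Epha5, Epha6, Epha8, Epha10, Ntn5, Robo3, Sema6b, Unc5a, Unc5d and Plxna4os1. No reading of theirs exceeded 25.5, and Unc5d, a netrin receptor, read 12.7, 8.0 and 14.5 on the normal arrays and 15.3, 23.7 and 15.4 on the knockout arrays. Among the 58 tested genes, 36 had more than 1 kept probe set. Of their 56 further probe sets, 35 shared the sign of the brightest and 21, in 16 genes, did not.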

How the data were processed

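The deposited values are MAS5 signal intensities, per the submitters' processing notes, on a linear scale, for 45101 probe sets on 6 arrays; the trimmed mean was 150.0 on each. Probe sets were named through the platform annotation where it gave 1 symbol. The 64 control probe sets were left out, 15 zeros took the 10th percentile of the positive signals, and probe sets with a mean log2 signal above the 40th percentile, a signal of 14.7, were kept (27022). limma 3.58.1 in R 4.3.3 (lmFit, eBayes with an intensity trend, two-sided) compared 3 knockout with 3 normal arrays, and p-values were adjusted by Benjamini-Hochberg across every kept probe set, with 0.05 as threshold; the code was tested on simulated data. Each gene is given by its brightest kept probe set over all 6 arrays. The members, gene lists, marker lists and tests were chosen with earlier results of these data known.

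Values per array are given for members fixed by name for known roles and for up to 3 members of each family with the smallest p. Other members were named after their values were seen. From the gene and marker lists only some genes are named, each among the 3 of its list with the smallest p. Not all of these are given with values per array. Depth has no meaning for arrays, so the number of arrays limits the precision. Same-numbered arrays did not deviate together (correlations of 0.08, -0.11 and -0.20), and no label pairs them, so no block was used. Batches and scan dates were not analysed here. Alternatives were quantile normalization, median centring, other filters, a pseudocount of 16, no trend, array weights, the replicate block, the mean over probe sets and leaving out arrays.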

Additional observations from a re-analysis of the deposited data

How the results depend on the processing

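No member passed the adjusted threshold in limma under any alternative run. The count of 7 genes at an unadjusted p under 0.05 became 4 without both arrays numbered 1 (2 lower, 2 higher). That alternative was added after seeing the data, and only 1 of the 4 was among the 7. Of the 7, 4 were kept under the mean over probe sets and 3 to 6 on leaving out 1 array. The 1 higher gene became 3 under quantile normalization and 2 each under median centring, without the filter and with array weights. Leaving out 1 array gave 3 to 14 such genes, 3 to 9 lower and 0 to 5 higher, 0 to 0 past the threshold, and a median difference from -0.13 to -0.01. In these fits the share of all genes at an unadjusted limma p under 0.05 ran from 7.42% to 14.2%. With the replicate block 7 genes had an unadjusted p under 0.05, 6 of them shared with the fit without it, and the block changed no call among the members; over all genes it called 43 against 75. Over all genes 98 were called under quantile normalization, 98 with array weights, 15 without the intensity trend, 15 to 63 on leaving out 1 array and 9 without both arrays numbered 1. Of 393 values for 40 named genes under the other alternatives, 383 kept their sign. Changing the filter, dropping the trend or adding the block cannot alter a gene's log2 difference here, so those signs were fixed in advance. The sign turned for Efna2 with array weights (0.022), for Efna1 (-0.025), Efnb1 (0.10), Nrp2 (0.047) and Sema3c (-0.040) under the mean over probe sets, and for Efna3 (0.10), Efnb2 (-0.016), Ephb6 (0.030), Nrp2 (0.063) and Plxnd1 (0.042) without both arrays numbered 1. Leaving out 1 array turned the sign of Dcc (-0.33 to 0.11), Efna1 (-0.013 to 0.063), Efna2 (-0.13 to 0.057), Efna3 (-0.20 to 0.054), Efnb2 (-0.093 to 0.25), Efnb3 (-0.050 to 0.20), Epha2 (-0.33 to 0.17), Epha3 (-0.20 to 0.30), Ephb3 (-0.13 to 0.14), Nrp2 (-0.33 to 0.19), Ntn1 (-0.097 to 0.15), Plxnd1 (-0.32 to 0.022), Robo1 (-0.079 to 0.017), Sema3a (-0.015 to 0.39) and Sema3f (-0.25 to 0.017), given as the lowest to the highest log2 difference. The cause was not tested. Signals near the filter level, as for Ntn3, Plxna4 and Plxnb3, limit what the arrays can resolve.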
